A study of Mus musculus with 8 samples.

Results

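The comparison described here is 4OHT against DMSO in the unlabelled, 0 min arm of a 4sUDRB-seq experiment on mouse embryonic stem cells. Its members are 4 of the 8 libraries, 2 with 4OHT and 2 with DMSO, and the 38911 entries of the table that are not spike-in RNAs, of 38971 in all. All cells carried conditional knockout alleles of Ythdc1 and were male cells derived from the inner cell mass of 129 embryos at 3.5 days post coitum. They were grown without feeder cells in 15% serum and 1000 U/ml LIF. Cells were held with DMSO, or with 1 μg/ml of 4OHT (4-hydroxytamoxifen, the ligand that switches on tamoxifen-inducible Cre), during 4 days. Both groups then had 100 μM DRB during 3 h, followed by a wash and 0 min of 1 mM 4sU before RNA from 100 μg was biotinylated and bound to streptavidin. The Cre driver, the deleted exons and the number of clones were not given in the sources used here. Sample titles give cell line number 1 for all 4 libraries at 0 min and number 2 for all 8 min libraries, whereas the table's column names carry a 1 or a 2 at both times. The libraries are therefore called DMSO 1, DMSO 2, 4OHT 1 and 4OHT 2 after the column names, and each name stands for the library so labelled. The labels do not say whether the libraries came from separate cultures, so a p-value here reflects only how far these samples spread, and that spread may be technical.

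The product of Ythdc1 is a nuclear protein that binds RNA at N6-methyladenosine (m6A), a modified base on messenger and other RNAs, and in embryonic stem cells it is known for restraining retrotransposons and the 2-cell embryo programme. 4sU is a uridine analogue taken up into RNA as it is made, and its sulphur lets that RNA be coupled to biotin. DRB blocks the release of RNA polymerase II from promoters. With no labelling time, the purified RNA should hold little that was made after the block, so by design these libraries give the background of the method, meaning RNA in the cells that came through the streptavidin step.

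No gene, repeat type or structural RNA type passed the test between 4OHT and DMSO at 0 min. The comparison instead split by library number. That test counts the difference between numbers as spread within a group, so its lack of calls does not show that 4OHT changed nothing. 4OHT 1 was close to DMSO 1 at nearly every gene, while 4OHT 2 differed from DMSO 2 at many. No value here checks whether the library labelled 4OHT 1 came from cells that lost Ythdc1, and every group mean, fold change and call below averages it with 4OHT 2. RNA of the Zscan4 family, a marker of the 2-cell-like state, summed to 18.3 in DMSO 1, 24.6 in DMSO 2, 17.3 in 4OHT 1 and 114 in 4OHT 2. Values are normalised read counts, meaning the deposited signal rescaled by the median ratio of entries among the 4 libraries.

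The Zscan4 genes are near copies that lie together on chromosome 7, so reads of one may be counted for another. The promoters of the 3 members below, read from RefSeq for GRCm38.p6, are shown because these genes were each highest in 4OHT 2. Each runs from 250 bases before to 50 bases after the annotated start, and capitals mark the match to TATAAA.
Zscan4c (chr7:11005495-11005794, plus strand): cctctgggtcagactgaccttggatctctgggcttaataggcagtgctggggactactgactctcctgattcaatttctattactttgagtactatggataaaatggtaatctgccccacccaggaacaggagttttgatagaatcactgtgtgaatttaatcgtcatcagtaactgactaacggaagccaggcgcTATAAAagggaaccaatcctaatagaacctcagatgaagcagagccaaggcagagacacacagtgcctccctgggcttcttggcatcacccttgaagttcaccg
Zscan4d (chr7:11166099-11166398, minus strand): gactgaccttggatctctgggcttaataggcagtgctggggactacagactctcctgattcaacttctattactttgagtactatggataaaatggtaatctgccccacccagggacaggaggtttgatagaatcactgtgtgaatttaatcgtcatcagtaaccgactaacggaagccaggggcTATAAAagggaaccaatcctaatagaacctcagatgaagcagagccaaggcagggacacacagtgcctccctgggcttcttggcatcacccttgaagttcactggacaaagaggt
Zscan4f (chr7:11397665-11397964, plus strand): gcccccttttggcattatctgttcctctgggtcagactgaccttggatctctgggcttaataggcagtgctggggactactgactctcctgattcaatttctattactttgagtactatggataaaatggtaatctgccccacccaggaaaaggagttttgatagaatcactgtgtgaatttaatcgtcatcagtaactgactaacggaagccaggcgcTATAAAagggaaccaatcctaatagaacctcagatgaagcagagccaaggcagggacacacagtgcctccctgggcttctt
The printed promoters shared 97.2% to 99.3% of aligned bases. A match to TATAAA on either strand was found in 4 of 4 Zscan4 promoters in the RefSeq table and in 13.6% of its 32851 promoters of the same length.

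The 4 libraries held 46340613 to 61409073 recovered reads, that is, deposited values multiplied back to whole reads. Between 87.9% and 89.5% of the entries with 1 to 20 reads held an even number. The factors used for rescaling were 0.830 for DMSO 1, 0.985 for DMSO 2, 0.815 for 4OHT 1 and 1.52 for 4OHT 2. Spike-in RNA took 0.120% and 0.101% of reads in DMSO 1 and 4OHT 1, but 0.618% and 0.668% in DMSO 2 and 4OHT 2. The spike-in share thus went with the number and not with the treatment. Scaling by the spike-in signal in place of the median ratio also gave 0 calls among genes, repeat types and structural RNA types in limma. The spike-in signal was 3080 in DMSO 1 and 2520 in 4OHT 1, but 19419 in DMSO 2 and 31054 in 4OHT 2. Such scaling sets the 2 libraries of each group far apart, so it could hardly have called anything. Of 37794 genes, 14345 had a value of at least 10 in at least 2 libraries and were tested, as were 824 of 1039 repeat types and 35 of 78 structural RNA types. Fewer cells of a type and less RNA per cell cannot be told apart in bulk samples.

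Ythdc1, the targeted gene (GRCm38.p6 chr5:86803980-86836659), had normalised read counts of 161 in DMSO 1, 188 in DMSO 2, 158 in 4OHT 1 and 272 in 4OHT 2. 4OHT 1 was close to DMSO 1, and 4OHT 2 was the highest of the 4. The log2 fold change was 0.25 (SE 0.42; limma adjusted p = 1.00). In the 8 min arm the DMSO libraries had 2919 and 3541 and the 4OHT libraries 2058 and 2489, so that both 4OHT libraries were below both DMSO libraries. The difference between the arms did not pass (limma adjusted p = 0.894). The gene row counts reads over the whole gene, so without the deleted exons it does not check the 0 min labels. Of the 24 genes of m6A proteins tested, none was called. Mettl5, a ribosomal RNA m6A methyltransferase, had 72.4 and 98.4 in the DMSO libraries, against 60.5 and 58.0 in the 4OHT libraries. Zcchc4, the other ribosomal RNA m6A methyltransferase, had 25.8 and 31.4 against 28.7 and 58.8. Cbll1, a subunit of the m6A writer complex, had 54.7 and 96.4 against 67.6 and 162, with 4OHT 2 again highest.

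The cells' identity was read from markers. The summed value of 8 embryonic stem cell markers, Pou5f1, Sox2, Nanog, Klf4, Esrrb, Zfp42, Dppa5a and Tdgf1, was 4334 in DMSO 1, 4420 in DMSO 2, 4309 in 4OHT 1 and 4017 in 4OHT 2. The sum hides members that went opposite ways between numbers. Esrrb had 1433, 2271, 1409 and 2054.5 in that order, and Dppa5a had 591, 254, 579 and 206. Pou5f1, Sox2, Nanog and Tdgf1 were also lower in both libraries numbered 2, whereas Zfp42 was nearly level and Klf4 was lowest in DMSO 1. The fixed markers of other cells were low in every library. The 7 fibroblast and feeder markers summed to 24.9 to 35.0, with Lum at 0 in all 4 libraries. The 5 trophoblast markers summed to 14.6 to 27.0, the 3 blood markers to 5.16 to 11.0 and the 5 primitive endoderm markers to 30.3 to 43.4, with Sox17 at 0. Wider lists for those cells also hold genes with high values, such as Fgfr2, a growth factor receptor on the trophoblast list (4456, 8009, 4419 and 8198 in DMSO 1, DMSO 2, 4OHT 1 and 4OHT 2), the matrix gene Fn1 (425 to 500) and the laminin gene Lamc1 (228 to 268). The 10 markers of 2-cell-like cells summed to 15.6, 17.6 and 13.8 in DMSO 1, DMSO 2 and 4OHT 1 and to 93.1 in 4OHT 2.

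The background RNA was described by the entries with the largest shares of reads. Gm26917, a transcript with ribosomal RNA sequence, took 27.7% of reads in DMSO 1, 25.6% in DMSO 2, 27.1% in 4OHT 1 and 23.2% in 4OHT 2. The next gene rows by share were CT010467.1 (0.786% to 0.886%), Gm42418 (0.668% to 0.777%) and Malat1, the abundant nuclear long noncoding RNA (0.371% to 0.503%). The translation factor gene Eef1a1 took 0.166% to 0.293%, and Rn7sk, which holds the elongation factor P-TEFb inactive, took 0.107% to 0.283%. Among repeat types, FordPrefect (2.97% to 3.46%) led, followed by the SINE types B2_Mm2, B3, B2_Mm1a and B2_Mm1t. Repeat types together took 18.7% of reads in DMSO 1 and 18.9% in 4OHT 1, against 23.8% in DMSO 2 and 24.7% in 4OHT 2. Structural RNA took 1.33% and 1.32% in the libraries numbered 1 and 0.827% and 0.688% in those numbered 2. The shares of repeat types and structural RNA thus followed the number more than the treatment.

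Over the 14345 genes tested, the Pearson correlation of log2(value + 1) was 0.981 between DMSO 1 and 4OHT 1 and 0.952 between DMSO 2 and 4OHT 2. It was 0.907 between the DMSO libraries and 0.890 between the 4OHT libraries. These points share the scaling and each gene's level. The standard deviation over genes of the log2 difference was 0.32 for 4OHT 1 less DMSO 1 and 0.52 for 4OHT 2 less DMSO 2. It was 0.71 for DMSO 2 less DMSO 1 and 0.78 for 4OHT 2 less 4OHT 1. In the libraries numbered 1, 84 genes were over 2-fold higher and 88 over 2-fold lower with 4OHT. In those numbered 2 the counts were 443 and 442. The 2 libraries of a treatment therefore differed more from each other than from the library of the same number.

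**Figure D1:**
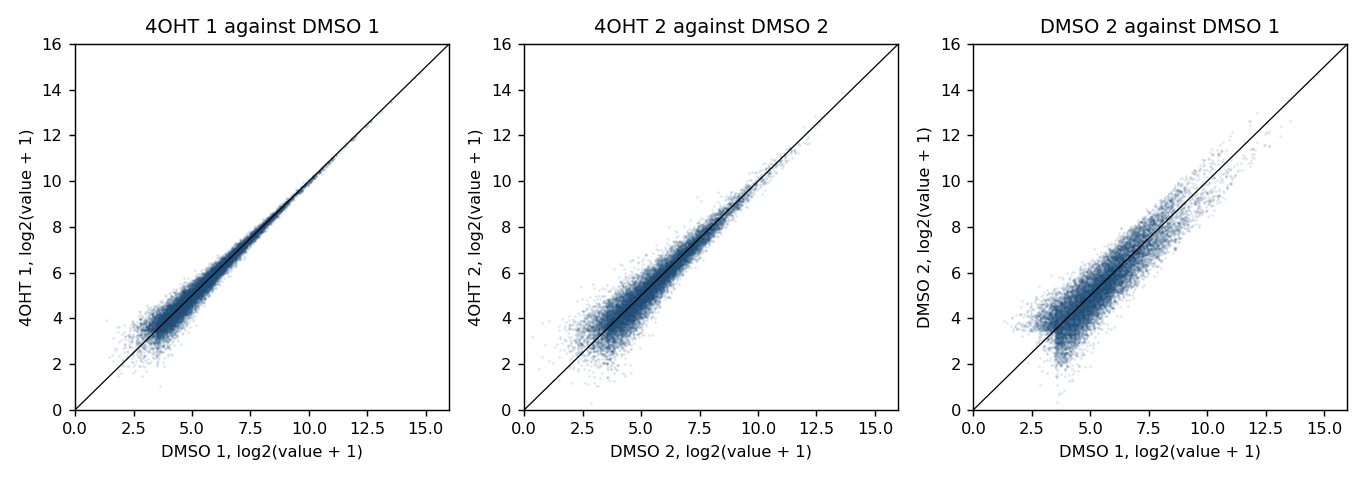
Normalised read counts as log2(value + 1) of the 14345 genes tested, 1 point a gene, for 4OHT 1 against DMSO 1, 4OHT 2 against DMSO 2 and DMSO 2 against DMSO 1; the line marks equal values. The points lie closest to the line for the libraries numbered 1 (Pearson r 0.981), less close for those numbered 2 (0.952), and widest between the DMSO libraries (0.907).

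The difference between libraries was also set against read sampling. A chi-square with 1 degree of freedom compared each gene's reads in a pair of libraries. Sampling of single reads gives a median of 0.455, and sampling of fragments that each count as 2 reads would give 0.910; most low counts here were even. For DMSO 1 and 4OHT 1 the median was 6.06 at 20 to 100 reads, 6.18 at 100 to 1000, 6.34 at 1000 to 10000 and 8.56 above 10000. These medians were nearly level over depth. For DMSO 2 and 4OHT 2 the medians were 12.5, 13.0, 24.1 and 97.5. For the DMSO libraries they were 12.5, 21.7, 111 and 2008, and for the 4OHT libraries 12.3, 26.3, 149 and 2689. At 1000 to 10000 reads the labelled libraries of the 8 min arm gave 65.6 between DMSO 1 and 4OHT 1 and 53.8 between DMSO 2 and 4OHT 2. Thus at 0 min the libraries labelled DMSO 1 and 4OHT 1 were the most alike pair in every depth class, with differences above either sampling median.

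**Figure D2:**
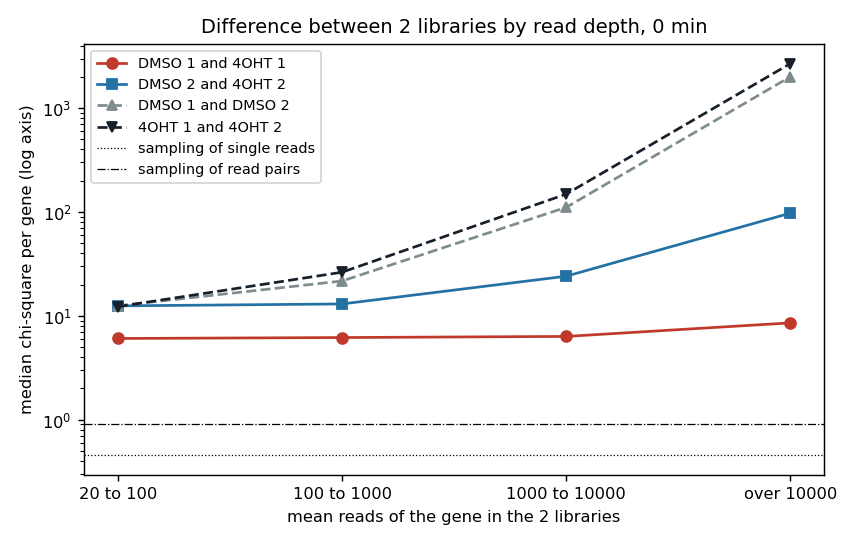
Median chi-square per gene between the reads of 2 libraries (log axis) for classes of the gene's mean reads; lines join 4 pairs of 0 min libraries, the dotted line marks sampling of single reads (0.455) and the dash-dotted line that of fragments counted as 2 reads (0.910). DMSO 1 and 4OHT 1 stay between 6.06 and 8.56, whereas the other pairs climb with depth, to 97.5 for DMSO 2 and 4OHT 2.

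In the fit of the 4 libraries, limma called 0 of 14345 genes in either direction (Benjamini-Hochberg at 0.05), a background of 0% called. At an unadjusted p under 0.05 there were 10 and 10, far below the share of 0.05 that no difference at all would give. This fit counts the difference between numbers as spread within a group (standard deviation over genes 0.71 in DMSO and 0.78 in 4OHT). It could therefore call little, and its lack of calls does not show that 4OHT changed nothing. edgeR on recovered reads called 0 and 0, with 17 and 12 at unadjusted p, and DESeq2 called 0 and 0, with 36 and 27. Leaving out 4OHT 1 gave 1 gene higher and 1 lower (0.00697% each), and a block for the number, which no label states to pair the libraries, gave 8 higher (0.0558%) and 0 lower in limma. Both 4OHT libraries lay above both DMSO libraries at 1085 genes (7.56%) and below both at 1040 genes (7.25%). The median log2 change over all genes tested was -0.01, with -0.00 in the libraries numbered 1 and -0.03 in those numbered 2.

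The genes of smallest p among those whose groups did not overlap are given as values, since each had a limma adjusted p of 1.00. Akap7, an anchor protein for protein kinase A, had 25.2 and 18.2 with DMSO and 46.6 and 52.1 with 4OHT (log2 fold change 1.17, SE 0.38). Cpt1c, a member of the carnitine palmitoyltransferase family, had 7.36 and 7.91 with DMSO and 22.7 and 18.3 with 4OHT (1.31, SE 0.50). In both genes the 4OHT libraries were alike. Itch, a ubiquitin ligase, had 54.5 and 27.8 with DMSO and 68.0 and 102 with 4OHT. Vcan, the matrix proteoglycan versican, had 27.0 and 44.4 with DMSO and 52.7 and 116 with 4OHT. For these, 4OHT 2 was the highest library. Alkbh8, a transfer RNA wobble methyltransferase, had 27.5 and 28.5 against 47.0 and 56.1. Pigh, which acts in the first step of GPI anchor synthesis, had 6.96 and 7.15 against 18.2 and 16.5. Like Cpt1c, Pigh reached the filter value only with 4OHT. Mbd2, which encodes a methyl-CpG binding protein, had 14.7 and 4.40 with DMSO, and 4OHT 2 was its highest library at 40.5 (log2 difference 0.67 in number 1 and 2.94 in number 2). The other 3 on the high side, 2310035C23Rik, Vezt and Prex2, had log2 fold changes of 0.91 to 1.16.

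On the low side, Tceanc had 14.8 and 12.4 with DMSO and 4.40 and 3.19 with 4OHT (log2 fold change -1.61, SE 0.67). The zinc finger gene Zfp51 had 14.8 and 18.2 against 5.65 and 6.28. Tbx20, a T-box factor known from heart development, had 15.1 and 16.5 against 5.76 and 5.75. In these 3 the 4OHT libraries were alike. Depdc1a, a gene linked to mitosis, had 24.9 and 29.7 against 15.5 and 5.53. Pcyox1l had 29.6 and 25.2 against 15.5 and 7.98. Zfp473, which acts in histone pre-mRNA processing, had 24.3 and 28.5 against 14.8 and 9.04. The other 4, Gm15529, Gm12655, AC159886.2 and Far1os, had log2 fold changes of -1.55 to -1.16. Of these, Gm12655, AC159886.2 and Far1os also reached the filter value only with DMSO. Far1os is named as an opposite-strand transcript, and the strand counted is not given in the sources used here, so its reads cannot be told apart from those of the gene it overlaps.

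Genes at which the numbers differed most were taken as those with the largest 4OHT less DMSO difference in number 2 less that in number 1, among 5921 genes with a mean of at least 50. These values chose the genes and are a description. Ptprt, a receptor tyrosine phosphatase, had 98.6 in DMSO 1, 165 in DMSO 2, 97.3 in 4OHT 1 and 636 in 4OHT 2. Lrrc28, a leucine-rich repeat gene, had 102, 188, 91.0 and 556 in the same order. Ccser1, a long coiled-coil gene, had 52.8, 72.5, 43.8 and 254. In each, 4OHT 2 was the highest library. In the 8 min arm, whose libraries were not used in the choice, the log2 change with 4OHT was 2.06 for Ptprt, 1.53 for Lrrc28 and -0.21 for Ccser1. The other 5 on the high side were Zfp365, Orc4 (a subunit of the origin recognition complex), Zfp451 (a SUMO ligase), Itch and Il17f. Their 8 min changes ran from -0.06 to 1.01.

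On the low side, Gm4610, a long noncoding RNA, had 121 in DMSO 1, 39.2 in DMSO 2, 117 in 4OHT 1 and 8.51 in 4OHT 2. The histone gene Hist1h3a had 111, 98.2, 130 and 43.7 in that order. Rnu1b6, a U1 small nuclear RNA gene, had 99.3, 44.9, 92.2 and 16.3. Psmd8, a subunit of the proteasome, had 74.1, 74.5, 73.4 and 29.0. In Gm4610 and Rnu1b6 DMSO 2 was below DMSO 1 as well, whereas in Hist1h3a and Psmd8 4OHT 2 alone stood far below the rest. The other 4 were Gm26232, the spindle gene Spag5, the ubiquitin ligase gene Rnf149 and Pwp2, a factor of ribosome assembly. In Pwp2, with 53.1, 92.6, 75.8 and 55.5, DMSO 1 and not 4OHT 2 was lowest. Changes of the 8 genes in the 8 min arm ran from -1.50 to 0.28.

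Of 46 genes of the 2-cell embryo programme in the table, 39 had reads at 0 min and 6 passed the filter on low values; none of the 6 was called. The highest library was 4OHT 2 for 26 of the 39, DMSO 2 for 5, DMSO 1 for 4 and 4OHT 1 for 4. How often 4OHT 2 was highest over all genes of such low values was not counted, so the 26 have no background to be read against. Zscan4d had 2.02 in DMSO 1, 0.413 in DMSO 2, 0.314 in 4OHT 1 and 17.0 in 4OHT 2. Zscan4c had 1.82, 2.61, 3.14 and 16.8 in that order, and Zscan4f had 5.04, 7.84, 4.34 and 23.0. The 9 Zscan4 rows, pseudogenes included, held 362, 358, 331 and 2144 reads. The ratio of their sum in 4OHT over DMSO was 0.949 in the libraries numbered 1 and 4.63 in those numbered 2. At 8 min it was 10.9 and 9.77. Slc5a12, a carrier that passed the filter, had 3.23, 12.9, 4.71 and 41.0. The members Arg2, BC147527, Gm20767, Gm21761 and Gm8994, the rest of those that passed, were not highest in 4OHT 2.

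MERVL, an endogenous retrovirus whose MT2_Mm repeats drive many 2-cell genes, was likewise highest in 4OHT 2, as values chosen after they were seen. MERVL-int had 1007 in DMSO 1, 1706 in DMSO 2, 1023 in 4OHT 1 and 4186 in 4OHT 2. MT2_Mm had 237, 406, 220 and 681. The ratio of 4OHT over DMSO for MERVL-int was 1.02 in number 1 and 2.45 in number 2, and for MT2_Mm 0.930 and 1.68. The group log2 changes of 0.66 (SE 0.59) and 0.32 (SE 0.64) did not pass (limma adjusted p = 1.00 for each). With a block for the number, a fit added after the data were seen and on numbers not stated to pair the libraries, edgeR called MERVL-int higher (adjusted p = 0.000136). The other 6 repeat types of the family, MERVL_2A-int, MT2A, MT2B, MT2B1, MT2B2 and MT2C_Mm, were higher in both libraries numbered 2 than in both numbered 1, as were 90.5% of all 824 repeat types tested.

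**Figure D3:**
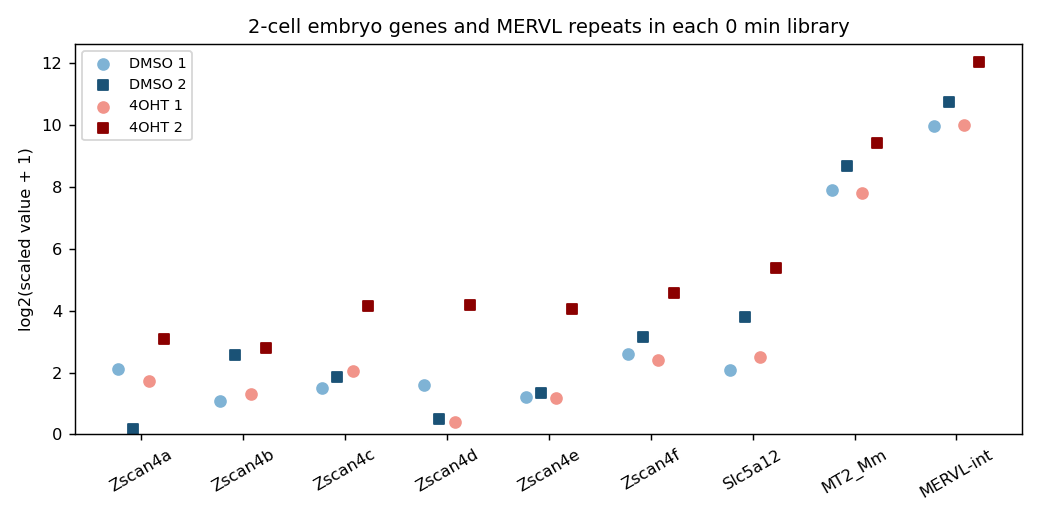
Normalised read counts as log2(value + 1) of 7 genes of the 2-cell embryo programme and of MT2_Mm and MERVL-int in each 0 min library, 1 point a library; circles are libraries numbered 1 and squares those numbered 2. The entries were chosen after their values were seen, and 4OHT 2 is the highest point for each of them, as it is for 26 of the 39 programme genes with reads. The same share over all genes was not counted.

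Genes were next grouped by the 8 min arm, whose 4 libraries share none with the 0 min arm. That arm called 3971 genes higher (20.4% of 19436) and 3139 lower (16.2%) with 4OHT (limma, adjusted p under 0.05), and 13923 genes were tested in both arms. The 2877 of these called higher at 8 min had a median 0 min difference of 0.01 in number 1 and 0.17 in number 2. The 2411 called lower had medians of -0.01 and -0.21. For the 368 genes over 2-fold higher at 8 min the medians were 0.06 and 0.46, and 56.8% and 78.5% of them were above 0. For the 552 over 2-fold lower the medians were -0.01 and -0.33, and 47.5% and 21.2% were above 0. Over all 13923 genes, 50.0% and 47.9% were above 0. The difference with 4OHT in number 2 thus ran with the 8 min change, and that in number 1 lay near 0 in every class.

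Across the 3297 genes with a mean of at least 100 at 0 min, the Pearson correlation of the 0 min difference in number 2 with the 8 min difference was 0.50 for the 8 min libraries numbered 1 and 0.40 for those numbered 2. For the 0 min difference in number 1 it was 0.10 and 0.05. The 0 min differences of the 2 numbers correlated at 0.07. The points are genes, which are not independent, and within an arm they share the scaling. In the test of the difference between the arms, 0 genes were higher and 0 lower at 8 min than at 0 min (limma, adjusted p under 0.05), with 422 and 415 at unadjusted p under 0.05 and 0 and 0 by edgeR. With the block for the number, 1 gene (0.00697%) was higher and 5 (0.0349%) were lower at 8 min. The smallest adjusted p was 0.198, for Slc1a4, an amino acid carrier. Slc1a4 had 40.5 and 46.2 in the DMSO libraries at 0 min and 25.4 and 25.7 in the 4OHT libraries, and its log2 change was -0.74 at 0 min and 1.94 at 8 min. Next came Scd1, a fatty acid desaturase, with 223 and 169 against 226 and 126 at 0 min and a log2 change of -0.20, against -3.45 at 8 min (adjusted p = 0.289).

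**Figure D4:**
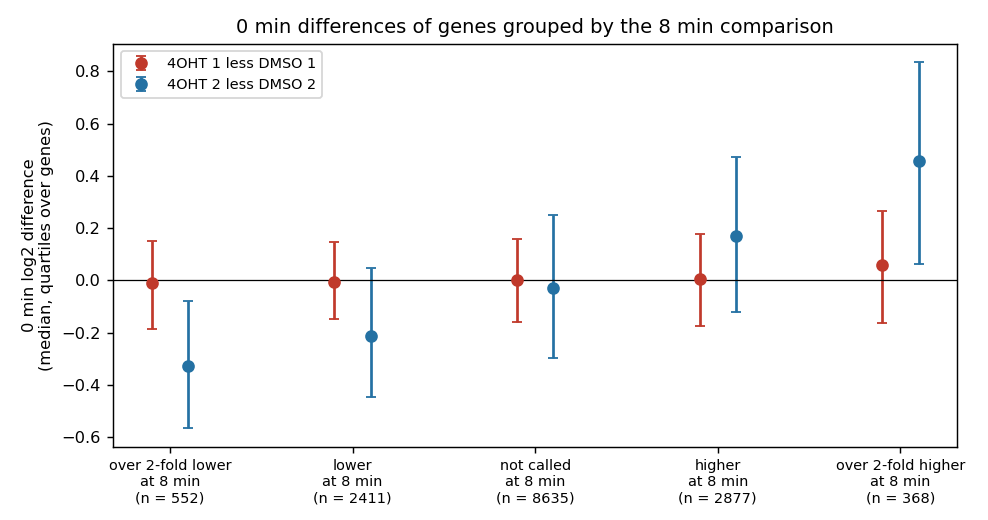
Median log2 difference at 0 min, 4OHT less DMSO, for the libraries numbered 1 and those numbered 2, over genes grouped by the 8 min comparison; bars span the quartiles over genes and are no error of the median. In number 2 the medians run from -0.33 to 0.46 across the classes, and in number 1 from -0.01 to 0.06.

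Gene length followed the number as well. Among 1899 protein-coding genes of up to 10 kb, the median log2 difference of DMSO 2 less DMSO 1 was -0.33, and among 486 genes over 300 kb it was 0.58. For 4OHT 2 less 4OHT 1 these were -0.48 and 0.78. The 4OHT less DMSO difference in number 2 was -0.11 for the short and 0.13 for the long genes, and in number 1 it was -0.01 and 0.01. Both 4OHT libraries lay above both DMSO libraries at 26 of the 486 longest genes (5.35%) and below at 9 (1.85%), against 8.66% and 7.88% of all 10875 protein-coding genes tested. The longest genes differed widely between numbers, which makes separation of the treatment groups rarer. Their shares therefore cannot be set against those of all genes. The group median of the longest genes was 0.08. It was -0.26 without 4OHT 2 and 0.47 without 4OHT 1.

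**Figure D5:**
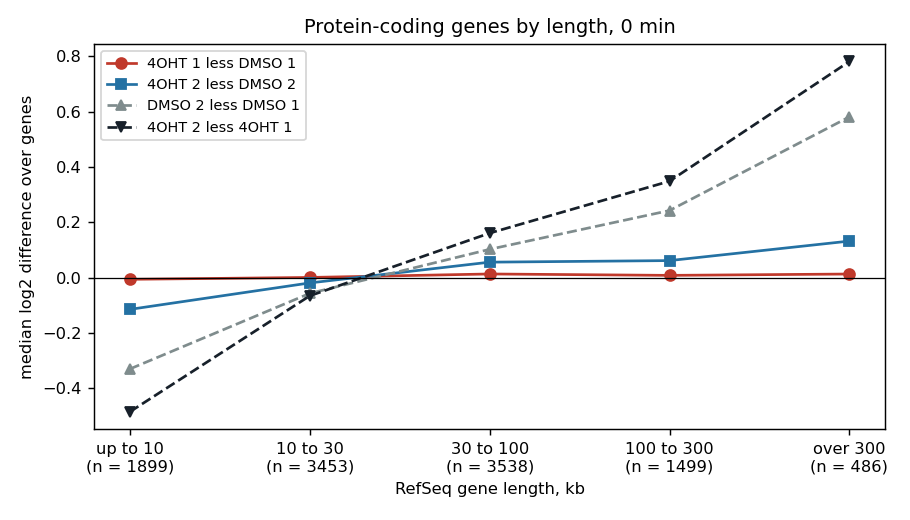
Median log2 difference over protein-coding genes in 5 classes of RefSeq gene length (kb), for 4OHT less DMSO in each number and for number 2 less number 1 in each treatment; n is the number of genes. The lines between numbers run from -0.48 to 0.78, that of 4OHT 2 less DMSO 2 from -0.11 to 0.13, and that of 4OHT 1 less DMSO 1 stays at -0.01 to 0.01.

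No member of any gene list was called at 0 min, and lists are described by medians beside -0.01 for all genes. Of all genes tested, 50% were above 0 in number 1 and 47.8% in number 2, against which the counts below are set. The replication-dependent histones, whose messages lack a poly(A) tail, had a median of -0.20 over 66 genes tested. Their summed value was 16797 in DMSO 1, 10341 in DMSO 2, 16533 in 4OHT 1 and 7800 in 4OHT 2. The 4OHT less DMSO median was -0.01 in number 1 and -0.44 in number 2, where 61 of 66 were below 0. Hist1h4h had 182 and 183 with DMSO, against 173 and 102 with 4OHT, and Hist4h4 had 173 and 151 against 155 and 91.8. The sums of both numbered 2 were thus below those numbered 1, and that of 4OHT 2 was lowest. Without DMSO 1 the median was 0.15, and without 4OHT 2 it was 0.36, so its direction rests on which library is present. Such a median also carries part of the difference between numbers, unlike the -0.01 and -0.44 within a number.

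Genes of sterol synthesis and uptake had a median of -0.18 over 23 tested, with -0.04 in number 1 and -0.29 in number 2, where 20 of 23 were below 0. Sqle, the squalene epoxidase, had 99.1 and 139 with DMSO and 100.1 and 94.7 with 4OHT. Tm7sf2, a sterol reductase, had 12.3 and 16.4 against 10.3 and 9.79. The median of the list at 8 min was -1.23. Without 4OHT 2 the 0 min median was 0.052. The 18 glycolysis genes had a median of -0.18, with -0.02 in number 1 and -0.29 in number 2, where 16 were below 0. Gapdh had 290 and 199 with DMSO and 281 and 158 with 4OHT, and Aldoa had 545 and 313 against 526 and 235. In both genes DMSO 2 was already below DMSO 1. Without DMSO 1 the glycolysis median was 0.12, and without 4OHT 2 it was 0.21.

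The 26 p53 target genes tested had a median of 0.11, with -0.02 in number 1 and 0.22 in number 2, where 22 were above 0. Pmaip1, which encodes the cell death protein Noxa, had 62.1 and 58.3 with DMSO and 75.7 and 91.0 with 4OHT. Eda2r, a receptor of the tumour necrosis factor family, had 55.1 and 75.8 against 65.5 and 124. In both, 4OHT 2 was highest. Without 4OHT 2 the median was -0.15. The 88 ribosomal protein genes had a median of -0.06 (-0.01 and -0.10 by number), and the 30 naive pluripotency genes -0.02 (-0.02 and -0.06). Medians of the lists of RNA polymerase II pausing and elongation (32 genes), nuclear oxidative phosphorylation (63), heat shock chaperones (17) and retrotransposon silencing (31) lay between -0.03 and 0.02.

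Small nuclear RNA was lower in the libraries numbered 2. The 43 small nuclear RNA genes had a median DMSO 2 less DMSO 1 difference of -1.20 and a 4OHT 2 less 4OHT 1 difference of -1.76. With 4OHT less DMSO they had -0.04 in number 1 and -0.54 in number 2. The median of the 24 small nucleolar RNA genes tested went the other way between numbers, at 0.27 in DMSO and 0.26 in 4OHT. Their class as a whole did not, since all 373 such genes took 0.0695% of reads in DMSO 1 and 0.0688% in 4OHT 1. In DMSO 2 and 4OHT 2 they took 0.0466% and 0.0433%. Rn7sk had 8773 in DMSO 1, 3991 in DMSO 2, 8401 in 4OHT 1 and 3287 in 4OHT 2. A mixed list of 11 rows had all members below 0 in number 2. It holds transcripts with ribosomal RNA sequence such as Gm26917, but also Rn7sk, the signal recognition particle RNAs Rn7s1 and Rn7s2, the RNase components Rpph1 and Rmrp, and the protein-coding gene Lars2. Its median was -0.30 there and -0.03 in number 1. Among structural RNA types, where 0 of 35 were called (0% background; 0 and 0 at unadjusted p under 0.05; 0 and 0 by edgeR and by DESeq2), U14, a small nucleolar RNA that guides ribosomal RNA methylation, had 29.2 and 45.0 with DMSO and 20.6 and 23.5 with 4OHT. U17 had 34.0 and 27.1 against 40.9 and 35.2. tRNA-Lys-AAG had 15.6 and 14.5 against 13.3 and 13.4. These 3 were the types whose groups did not overlap, 1 above (2.86%) and 2 below (5.71%). Both libraries numbered 2 were below both numbered 1 at 24 of the 35 types and above at 7. In the added fit with a block for the number, edgeR called 0 types higher and 5 lower (14.3%). They were 7SLRNA and U2 (adjusted p = 0.0156 each), U3 (0.0355), and LSU-rRNA_Hsa and U1 (0.0447 each). Their 4OHT less DMSO differences lay mainly in number 2. In number 1 and number 2 they were -0.02 and -0.48 for 7SLRNA, -0.083 and -0.545 for U2, and -0.16 and -0.52 for U3. For LSU-rRNA_Hsa they were 0.03 and -0.62, and for U1 -0.03 and -0.59. U2, a spliceosomal RNA, had 3558 and 1577 with DMSO and 3358 and 1081 with 4OHT, so that its number 2 libraries were both below its number 1 libraries.

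Within a number, the 4OHT less DMSO difference spread less over repeat types than over genes, mainly in number 2. Of 824 tested, limma called 0 higher and 0 lower (0 and 0 at unadjusted p under 0.05; edgeR 0 and 0, with 5 and 4 at unadjusted p; DESeq2 0 and 0, with 10 and 7). Both 4OHT libraries lay above both DMSO libraries at 14 (1.7%) and below at 16 (1.94%). Since 90.5% of repeat types were higher in both libraries numbered 2, the treatment groups could rarely separate, and these shares cannot be set against those of genes. In the added fit with a block for the number, edgeR called 1 higher (0.121%), MERVL-int, and 3 lower (0.364%). These were FordPrefect (adjusted p = 2.97e-08), MTC-int (3.66e-07) and ERVB7_2-LTR_MM (0.00142), with log2 changes of -0.18, -0.35 and -0.18 in the limma fit. In number 1 and number 2 the differences were -0.08 and -0.28 for FordPrefect, -0.15 and -0.55 for MTC-int, and -0.18 and -0.19 for ERVB7_2-LTR_MM. The standard deviation of the log2 difference was 0.28 in number 1 and 0.30 in number 2, against 0.32 and 0.52 for genes. Number 2 less number 1 had a median over repeat types of 0.68 in DMSO and 0.71 in 4OHT. MamRep1527, an old repeat, had 5.04 and 8.53 with DMSO and 10.4 and 20.8 with 4OHT. It reached the filter value of 10 only with 4OHT, which favours groups that do not overlap. Charlie4, a DNA transposon, had 7.76 and 14.4 against 14.7 and 28.8. In the latter, 4OHT 1 lay only just above DMSO 2. The other 3 on the high side, SRV_MM-int, RLTR31_Mm and RLTR53B_Mm, had log2 changes of 0.66 to 0.91. On the low side, MER77 had 64.6 and 87.7 against 43.2 and 63.5, and ERVB5_1-I_MM-int had 21.0 and 30.5 against 13.8 and 20.2. LTR102_Mam, Charlie25 and RLTR20C had changes of -0.60 to -0.49. The 6 young L1Md LINE types had medians of 0.03 in number 1 and 0.07 in number 2, and the 25 IAP and ETn types 0.01 and -0.08.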

How the data were processed

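The authors deposited 1 table of signal values, with bcl2fastq, STAR 2.7, Bowtie2 and build mm10 named per the submitters' processing notes without their roles. Each library's deposited signal turned out to be whole reads over a divisor of its own (100% of 0 min values within 0.01 of a whole read). What that divisor is, the strand counted and the handling of reads with several positions are not given in the sources used here. Columns whose names lack 4OHT were taken as DMSO, and columns were assigned to groups only. Of the gene names, 27329 matched a RefSeq symbol (GRCm38.p6) and 668 a unique synonym, and 9797 matched none.

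The 4 libraries were rescaled by the median ratio over 12172 entries. Entries reaching 10 in 2 or more of them were fitted on the log2(value + 1) scale by limma (version 3.58.1, R 4.3.3), with a trended prior and two-sided tests, and Benjamini-Hochberg adjustment at 0.05 ran over genes, repeat types and structural RNA types apart. Fold changes on this scale understate those of low entries. Reads come without molecular identifiers, so the chi-squares cover counting error of reads, which are not independent molecules. Alternatives used the quasi-likelihood test of edgeR (4.0.16) or DESeq2 (1.42.0) on recovered reads, other scalings, filters and pseudocounts, a block for the number, and each library left out. Named genes were the 10 each way of smallest p whose groups did not overlap (5 each way for repeat types, 3 for structural types, 8 each way for the difference between numbers), the top read shares and up to 3 members of a list. The members and lists were chosen with earlier results of these data known. MERVL-int, MT2_Mm, Slc5a12, the Zscan4 genes, the calls of the added edgeR block and Fgfr2, Fn1 and Lamc1 were named after their values were seen.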

Additional observations from a re-analysis of the deposited data

Results flagged for a closer look

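Among the entries named in the text, 7 had both 4OHT libraries on one side of both DMSO libraries at 0 min and on the other side at 8 min. Over all entries tested at 0 min, 522 of 14345 genes (3.64%), 9 of 824 repeat types (1.09%) and 1 of 35 structural RNA types (2.86%) did so. Of the 7, all but Slc1a4 were named because their groups did not overlap at 0 min, which is part of this condition. Slc1a4 was named for its difference between the arms. The shares over all entries are therefore no background for the 7. At 0 min both 4OHT libraries lay above both DMSO libraries at 1085 genes, 14 repeat types and 1 structural type. They lay below at 1040, 16 and 2, and the 522, 9 and 1 are among these. Cpt1c had a log2 change of 1.31 at 0 min and -0.44 at 8 min. Pcyox1l had -1.22 and 0.55, Zfp51 had -1.32 and 0.17, and Slc1a4 had -0.74 and 1.94. The limma test of the difference gave adjusted p = 0.496 for Cpt1c, 0.681 for Pcyox1l, 0.681 for Zfp51 and 0.198 for Slc1a4, so none passed. The repeat type RLTR53B_Mm had 0.66 at 0 min and -0.44 at 8 min, RLTR20C had -0.49 and 0.19, and the structural RNA U17 had 0.31 and -0.21. For these 3 the test of the difference also did not pass (limma adjusted p = 0.999, 0.999 and 0.997).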

How the results depend on the processing

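With 2 libraries a group, the gene count of 0 higher and 0 lower held for each other scaling, pseudocount, filter and tool tried, while leaving out 1 library gave 0 to 1 gene higher and 0 to 1 lower (1 and 1 without 4OHT 1). The lone library of a group is then assumed to vary like those of the other group. Every fit without a block counts the difference between numbers as spread, most of all on the spike-in scale, so their lack of calls carries little. The numbers 1 and 2 are not stated to pair the libraries, although the number 2 less number 1 differences of DMSO and 4OHT correlated at 0.68 over genes. With the replicate block, limma called 8 genes higher and 0 lower: Ptprt, Cep290, Vcan, Mbd2, Lama2, Dnah7c, Itch and Ano3. The log2 difference was -0.02 in number 1 and 1.94 in number 2 for Ptprt, and 0.32 and 1.83 for Itch. It was 0.67 and 2.94 for Mbd2, and 0.94 and 1.37 for Vcan. Ptprt and Itch were also among the genes chosen because the numbers differed most. The edgeR block, added after the data were seen, called 0 and 0 genes, 1 repeat type higher and 3 lower, and 5 structural types lower. The difference between the arms had 2 genes higher on the deposited scale, and 1 higher and 5 lower with the replicate block. Ythdc1 ran from -0.13 (without 4OHT 2) to 0.64 when 1 library was left out, and had 0.25 with the replicate block (limma adjusted p = 0.887).

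Leaving out 1 library moved the list medians over -0.79 to 0.36 (histones), -0.26 to 0.052 (sterol), -0.55 to 0.21 (glycolysis), -0.15 to 0.28 (p53) and -0.26 to 0.47 (genes over 300 kb). On the deposited scale, where the median of all genes was 0.28, they were 0.09, 0.11, 0.12, 0.40 and 0.38. Lists were therefore read relative to that median. With 1 library left out, the other library of its group is set against both of the other group. The medians then also carry part of the difference between numbers. The Zscan4 rows rest on 331 to 2144 reads, and depth limits single members.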
